A study of Mus musculus with 12 samples.

Results

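The genes described here pattern the ventral forebrain or make the transmitter GABA in its neurons. They were Nkx2-1, Gsx2, Lhx6, Lhx8, Gad1 and Gad2, and they were read through every deposited probe set whose only gene symbol in the platform table was one of these names. That gave 8 probe sets for the 6 genes, out of 45037 probe sets and 17097 genes in the series. Gad1 and Lhx6 had 2 probe sets each and the other genes had 1.

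RNA was measured on 12 arrays in 4 groups of 3, in a pair of experiments. In the YAP experiment, forebrain with midbrain was taken at E11.5 from embryos of genotype TetO-YAP1;Nes-rtTA (YAP overexpression) and from embryos carrying Nes-rtTA without the YAP1 transgene (YAP control). The transgene is a doxycycline-dependent YAP1-S127A, the Nestin promoter restricts its activator rtTA to neural progenitors, and dams were fed doxycycline at 200 mg/kg from E7.5. In the Nf2 experiment, dorsal telencephalon of E13.5 came from Nf2F/F;Emx1-Cre embryos (Nf2 knockout) and from Nf2F/+;Emx1-Cre embryos (Nf2 control), which carry the same Cre and lack 1 Nf2 allele where it acts. The background was mixed in all groups. Values are log2 intensities of a probe set. They were compared only within an experiment, since the arrays of the experiments looked separately normalized. Between genes, brightness is described, mostly as the share of genes or probe sets that lay below. Members were also set against the means of gene lists.

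Ventral forebrain progenitors lie in the ganglionic eminences. Nkx2-1 is the homeobox gene that specifies the medial eminence, and Gsx2 specifies the lateral eminence and represses dorsal fate. Progenitors there give rise to GABA neurons, and Lhx6 and Lhx8, LIM-homeodomain genes acting downstream of Nkx2-1, mark the neurons that leave the medial eminence, Lhx6 in cortical interneurons and Lhx8 in striatal and basal forebrain cholinergic neurons. Gad1 and Gad2 encode the enzymes GAD67 and GAD65, which make GABA from glutamate. GABA neurons also arise in the diencephalon and midbrain, and those of the embryonic cortex are mostly born ventrally and migrate in, outside the dorsal lineage in which Emx1-Cre acts.

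Because 5 of the 6 genes moved together in the YAP experiment, the DNA just before their start sites is shown for 4 windows of GRCm38.p6, from RefSeq. Each runs 250 bases up to the base before the annotated start, on the gene's own strand. The windows were searched on both strands for CATTCC, the core that TEAD proteins, the DNA-binding partners of YAP, recognise, and for TAATTA and TAATTG, typical homeodomain sites. Capitals mark a match.
Gad1, chr2:70561879-70562128, plus strand: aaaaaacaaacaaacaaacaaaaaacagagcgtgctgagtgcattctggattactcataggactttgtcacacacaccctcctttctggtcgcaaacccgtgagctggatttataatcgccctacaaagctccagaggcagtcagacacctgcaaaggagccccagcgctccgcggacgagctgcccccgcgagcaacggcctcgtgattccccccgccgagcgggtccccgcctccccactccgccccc
Gad2, chr2:22622077-22622326, plus strand: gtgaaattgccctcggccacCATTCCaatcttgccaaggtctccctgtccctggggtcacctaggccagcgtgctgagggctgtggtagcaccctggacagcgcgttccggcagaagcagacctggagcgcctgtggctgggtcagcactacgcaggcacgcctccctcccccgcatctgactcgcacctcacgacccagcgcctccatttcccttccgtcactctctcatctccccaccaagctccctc
Lhx6, the start nearest the gene's 3' end, chr2:36104061-36104310, minus strand: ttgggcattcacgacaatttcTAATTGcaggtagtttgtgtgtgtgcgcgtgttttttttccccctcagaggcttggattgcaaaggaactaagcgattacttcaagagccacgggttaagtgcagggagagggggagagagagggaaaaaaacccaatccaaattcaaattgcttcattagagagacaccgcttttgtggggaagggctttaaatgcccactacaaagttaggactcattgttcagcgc
Lhx8, chr3:154330561-154330810, minus strand: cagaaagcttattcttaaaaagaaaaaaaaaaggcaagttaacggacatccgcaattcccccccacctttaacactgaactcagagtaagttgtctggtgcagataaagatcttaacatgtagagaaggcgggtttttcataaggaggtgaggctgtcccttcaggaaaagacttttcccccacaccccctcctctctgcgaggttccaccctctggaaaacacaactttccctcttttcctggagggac
CATTCC was found in the Gad2 window, beginning at position -230 counted from the start, and in none of the other windows of the 6 genes. TAATTG was found in the Lhx6 window shown, beginning at position -229 from that start, and not in the windows of the other 2 Lhx6 starts or of the other genes. TAATTA was found in none of the 8 windows. Of 32851 RefSeq windows of this length, 12.64% held CATTCC, 7.17% TAATTG and 4.84% TAATTA on either strand. A match is a description of these letters and not of binding.

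The deposited arrays had similar medians within an experiment and correlated closely within a group. Normalization can bring such values together, so they do not measure RNA or array quality, which was not examined. The 6 YAP arrays had medians of 5.03 to 5.1 and the 6 Nf2 arrays of 4.3 to 4.42, and no 2 arrays of a group had an r across genes under 0.994. Yap1 read 10.99 to 11.07 in controls and 11.23 to 11.35 with overexpression, a difference of 0.27 that was not called (limma adjusted p = 0.0551), and Nf2 differed by -0.38 in the knockouts (limma adjusted p = 0.246, not called). The midbrain gene En2 stood above 81.2% of genes in YAP controls and above 9.8% in Nf2 controls. Since the labels do not say whether arrays of a group are from separate embryos, p-values here reflect only how far these samples differ, and that spread may be technical. With 3 arrays a group, the number of arrays limits the precision.

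YAP overexpression at E11.5 lowered 5 of the 6 genes. Gad1 and Lhx8 fell most, to 28.2% and 27.9% of the control level, Lhx6 fell to 50.2%, Gad2 to 59.3% and Gsx2 to 67.2%. Nkx2-1 did not pass the test. Over all 17097 genes, 3.64% were lower and 6.31% were called in either direction at a limma adjusted p under 0.05, the threshold used throughout. The members were chosen with earlier results of these data known, so these shares give a background and not a test of the members as a set. In each of the 5 called genes the highest overexpression array lay below the lowest control array, while 21.3% of all genes had groups that did not overlap in either direction. In such bulk tissue, fewer cells of a type and less RNA per cell cannot be told apart.

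**Figure D1:**
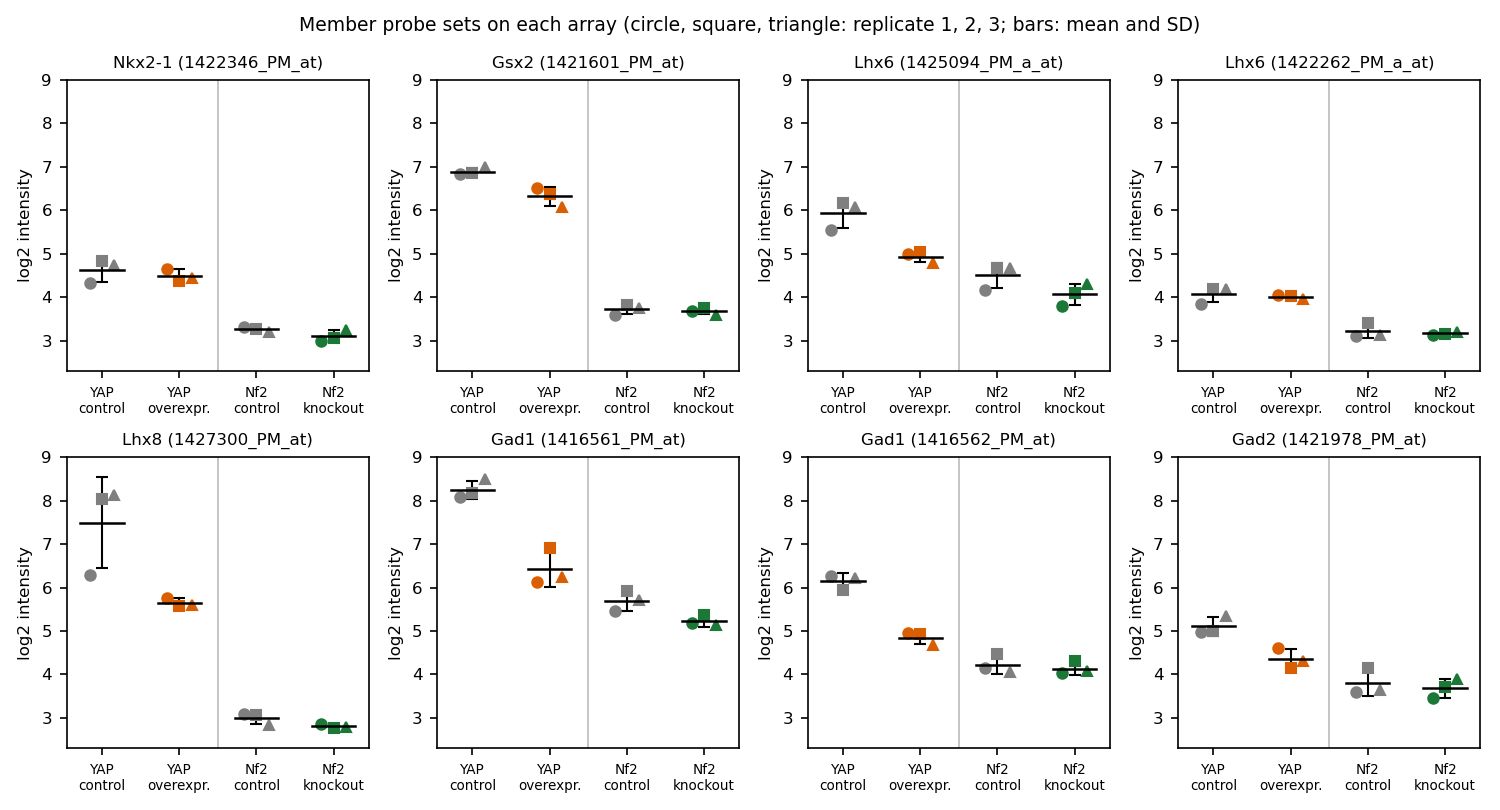
Log2 intensity (y axis) of each of the 8 probe sets on each of the 12 arrays, with the group mean as a line and 1 SD (n = 3) as a bar. Symbols give the replicate number, and the vertical line parts the experiments, whose levels are not comparable. The overexpression arrays lie below all control arrays for Gsx2, Lhx8, both Gad1 probe sets, Gad2 and the brighter Lhx6 probe set, and the Nf2 groups overlap except in the brighter Gad1 probe set.

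Of the progenitor patterning genes, Nkx2-1 showed no change that passed the test. Its control arrays read 4.32, 4.84 and 4.74 and its overexpression arrays 4.66, 4.37 and 4.44. The groups overlapped, since control replicate 1 read lower than every overexpression array. The log2 difference was -0.14 (SE 0.13, limma adjusted p = 0.614), with a 95% interval from -0.42 to 0.14. Without control replicate 1 the difference was -0.3 (limma adjusted p = 0.161). The SD was 0.28 in YAP controls, and the interval shares its spread with Nf2 arrays, where the SDs were 0.06 in controls and 0.13 in knockouts. The Nkx2-1 mean in controls was above only 39.9% of all probe sets, so this probe set was dim. A fall may be understated there, and the interval does not exclude one as large as that of Gsx2.

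Gsx2, the lateral eminence gene, fell. Its control arrays read 6.84, 6.85 and 6.99, and its overexpression arrays 6.51, 6.38 and 6.07. The control arrays lay close together and all above the overexpression arrays, of which replicate 3 was lowest. The log2 difference was -0.57 (SE 0.11, limma adjusted p = 0.0092), a 1.49-fold lower level. With only the 6 arrays of the experiment in the fit, the difference was the same and was not called (limma adjusted p = 0.0587).

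The LIM-homeodomain genes Lhx8 and Lhx6 both fell. Lhx8 read 6.28, 8.05 and 8.14 in controls and 5.77, 5.58 and 5.60 with overexpression. The overexpression arrays lay close together, while control replicate 1 was nearer to them than to the other controls. The log2 difference was -1.84 (SE 0.36, limma adjusted p = 0.0103), 3.58-fold lower, and 4 of all 17097 genes fell further. Without control replicate 1 it was -2.45 (limma adjusted p = 8.07e-07), and with only the 6 arrays of the experiment it was not called (limma adjusted p = 0.0792). Fits with the Nf2 arrays share their spread, and there Lhx8 was dim, with SDs of 0.14 in controls and 0.05 in knockouts. The SD in YAP controls was 1.05, so the SE and the smaller p-values lean on arrays where Lhx8 was dim.

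Lhx6 was measured by a brighter and a dimmer probe set that differed in result. The brighter one, which stands for the gene in the fit, read 5.55, 6.17 and 6.07 in controls and 4.99, 5.03 and 4.79 with overexpression. Again control replicate 1 was the lowest control, and the groups did not overlap. The log2 difference was -0.99 (SE 0.18, limma adjusted p = 0.0076). The dimmer probe set read 3.85, 4.20 and 4.20 against 4.05, 4.03 and 3.95, a difference of -0.07 (SE 0.11, limma adjusted p = 0.807 over 28898 probe sets). Its control mean was above only 7.18% of all probe sets, close to the bottom of the arrays' range.

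Of the genes that make GABA, Gad1 fell on both of its probe sets. Its brighter probe set read 8.09, 8.18 and 8.49 in controls and 6.13, 6.90 and 6.25 with overexpression. The gap between the lowest control and the highest overexpression array exceeded the range of either group. The log2 difference was -1.83 (SE 0.19, limma adjusted p = 0.000161), 3.55-fold lower, with a 95% interval from -2.23 to -1.42. The other Gad1 probe set gave 6.27, 5.94 and 6.23 against 4.95, 4.92 and 4.67. It too fell, by 1.30 on the log2 scale (SE 0.13, limma adjusted p = 0.000156 over 28898 probe sets). In that fit 6 of the 8 member probe sets were lower, against 2.71% of all probe sets.

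Gad2, the gene of GAD65, also fell. It read 4.97, 5.0 and 5.35 in controls and 4.60, 4.15 and 4.31 with overexpression. The groups did not overlap, and overexpression replicate 1 came nearest to the controls. The log2 difference was -0.75 (SE 0.17, limma adjusted p = 0.0218), 1.69-fold lower. It was not called without control replicate 3 (limma adjusted p = 0.0935), without overexpression replicate 2 (0.0618) or without overexpression replicate 3 (0.0693). Gad2 averaged above 50.4% of all probe sets in controls and above 25.6% with overexpression, so its lower values were near the dim end, and the difference between the falls of Gad1 and Gad2 was not tested.

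**Figure D2:**
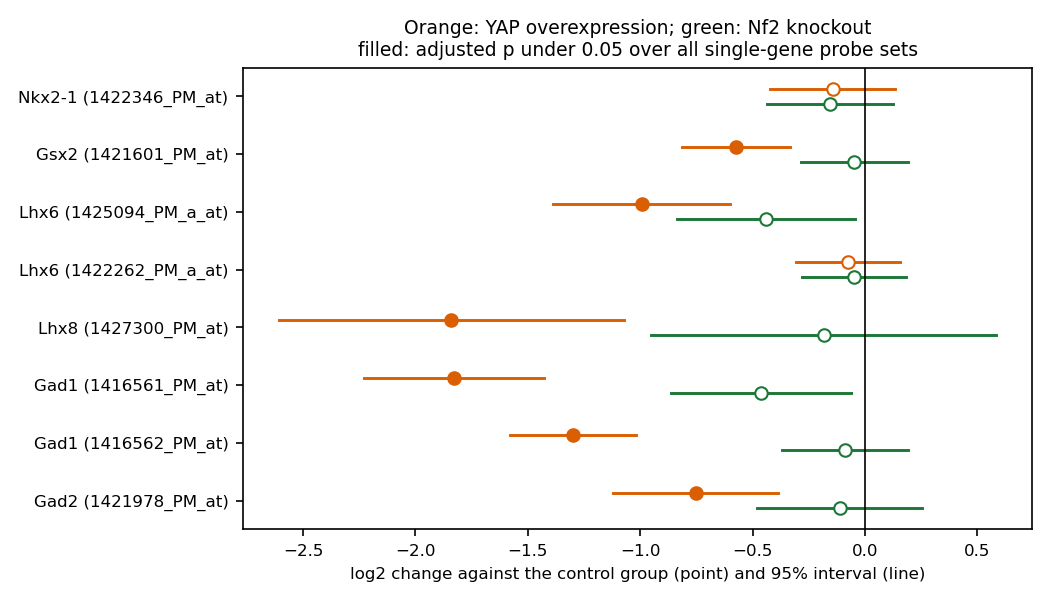
Log2 change against the experiment's own controls (x axis) for each of the 8 probe sets, with the 95% interval of the fit over 28898 probe sets. Filled points passed an adjusted p of 0.05, which held for 6 probe sets with YAP overexpression (orange) and for 0 with Nf2 knockout (green).

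Among the YAP control arrays, replicate 1 was the lowest for all 6 genes. The dimmer Gad1 probe set was an exception, since replicate 1 was its highest control. It differed from the control mean by -1.21 for Lhx8, -0.38 for Lhx6 and -0.31 for Nkx2-1, the genes of the medial eminence, and by -0.16, -0.14 and -0.05 for Gad1, Gad2 and Gsx2. Averaged over lists of other genes, the same array differed from the control mean by 0.02 for other ventral progenitor genes, 0.08 for dorsal telencephalic genes, -0.04 for general neuron genes, -0.12 for GABA neuron genes, 0.10 for midbrain markers, 0.19 for mesenchyme and pericyte markers and -0.27 for choroid plexus markers. With this array left out, the same 5 genes were called.

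Most other genes of ventral progenitors were not called. Of 13 measured genes on this list, Olig2, a basic helix-loop-helix gene of ventral progenitors, fell by 0.73 (SE 0.18) and 11 passed no test. Shh, the secreted signal that ventralises the neural tube, was 2.25-fold higher (log2 1.17, SE 0.24), over a dim control level that stood above 32.8% of genes, where a fold may be understated. Shh averaged 4.65 (SD 0.27, n = 3) in controls and 5.82 (SD 0.62, n = 3) with overexpression. The limma adjusted p was 0.0317 for Olig2 and 0.0125 for Shh. Gsx1, the close relative of Gsx2, differed by -0.34 (limma adjusted p = 0.159), Gli1, a target and effector of Shh signalling, by 0.33 (0.276), and Olig1 by -0.23 (0.716). The list's median was 0.05, against -0.01 over all genes. In controls the 11 uncalled genes stood above 27.2% to 95.9% of genes, and a change in the dimmer ones may be understated. Since the tissue was forebrain with midbrain, the list does not show the state of the ganglionic eminences alone.

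The next list held genes of GABA neurons and the ventral mantle. Of its 19 measured genes, 7 fell, 1 rose and 11 were not called, and the median was -0.29. Dlx1, Dlx2 and Dlx5, homeobox genes needed for GABA neuron development, differed by -2.19 (SE 0.38), -1.92 (SE 0.22) and -1.87 (SE 0.29). Gbx2 (-0.68, SE 0.13) and Meis2 (-0.56, SE 0.13), also homeobox genes, fell too, and the limma adjusted p of these 5 ran from 0.000465 to 0.0247. Isl1, a LIM-homeodomain gene of striatal neurons, differed by -0.97 (limma adjusted p = 0.223), the striatal gene Ebf1 by -0.67 (0.103) and the neuropeptide gene Sst by -0.36 (0.228). The 1 gene that rose, named after its value was seen, was the zinc finger gene Sp8 (0.47, SE 0.11, limma adjusted p = 0.0291).

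The handling of GABA after its synthesis was covered by 5 measured genes. Slc32a1, which loads GABA into vesicles, fell by 1.16 (SE 0.22, limma adjusted p = 0.0084), from a mean of 6.21 (SD 0.52, n = 3) to 5.05 (SD 0.27, n = 3). Abat, which breaks GABA down, fell by 0.71 (SE 0.14, limma adjusted p = 0.00934). The transporter gene Slc6a13 (0.18, limma adjusted p = 0.575), the receptor scaffold gene Gphn (-0.10, 0.681) and the GABA catabolism gene Aldh5a1 (-0.06, 0.775) were not called.

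Other lists covered further sources of GABA neurons and the make-up of the tissue. Of 9 measured genes of midbrain and diencephalic GABA lineages, all had negative differences, with a median of -0.47, but only Lhx1, a LIM-homeodomain gene of early neurons, was called (-1.75, SE 0.38, limma adjusted p = 0.0172). Gata2, Gata3 and Tal1, which direct midbrain GABA fate, differed by -0.60, -0.55 and -0.51 (limma adjusted p = 0.119, 0.0971 and 0.0545). Of 11 general neuron genes, 7 fell, 0 rose and 4 were not called, with a median of -0.65, led by Ina, Elavl4 and Snap25 at -0.89, -0.82 and -0.80. Of 8 dorsal telencephalic patterning genes, 6 fell and 2 were not called, with a median of -0.61, among them Neurog2 (-0.88), Neurog1 (-0.65), Lhx2 (-0.69), Emx2 (-0.68) and Emx1 (-0.58). Of 10 general progenitor genes, Hes1 (0.60) and Vim (0.27) rose, Fabp7 (-0.66) and Sox9 (-0.61) fell and 6 were not called, with a median of -0.08. None of the 5 midbrain markers was called, with differences from -0.07 to 0.02. Only En2 of these was bright in controls (above 81.2% of genes). The others stood above 12.5% (En1) to 45.5% (Wnt1) of genes, where a change may be understated.

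The log2 of the summed intensities of a list follows its brightest genes most. For the general neuron list it ran from 14.04 to 14.32 in controls and from 13.45 to 13.89 with overexpression, without overlap. For the telencephalon markers it ran from 11.97 to 12.25 and from 11.40 to 11.48, and for the midbrain markers from 9.52 to 9.79 and from 9.44 to 9.83. Of the 4 measured choroid plexus markers, Folr1 rose (1.5, SE 0.14, limma adjusted p = 9.17e-05). The other 3, Ttr (-0.69), Kcne2 (0.26) and Kl (-0.10), were not called. The log2 of the summed intensities of the 4 ran from 7.43 to 8.06 in controls and from 8.41 to 8.69 with overexpression. Folr1 was the brightest of the 4 by group mean (6.77 in controls, 8.27 with overexpression), so this sum follows it most. None of the measured markers of erythroid cells (4), endothelium (4), mesenchyme and pericytes (5) or microglia (4) was called. The part of these lists in the lower values of the members was not tested.

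**Figure D3:**
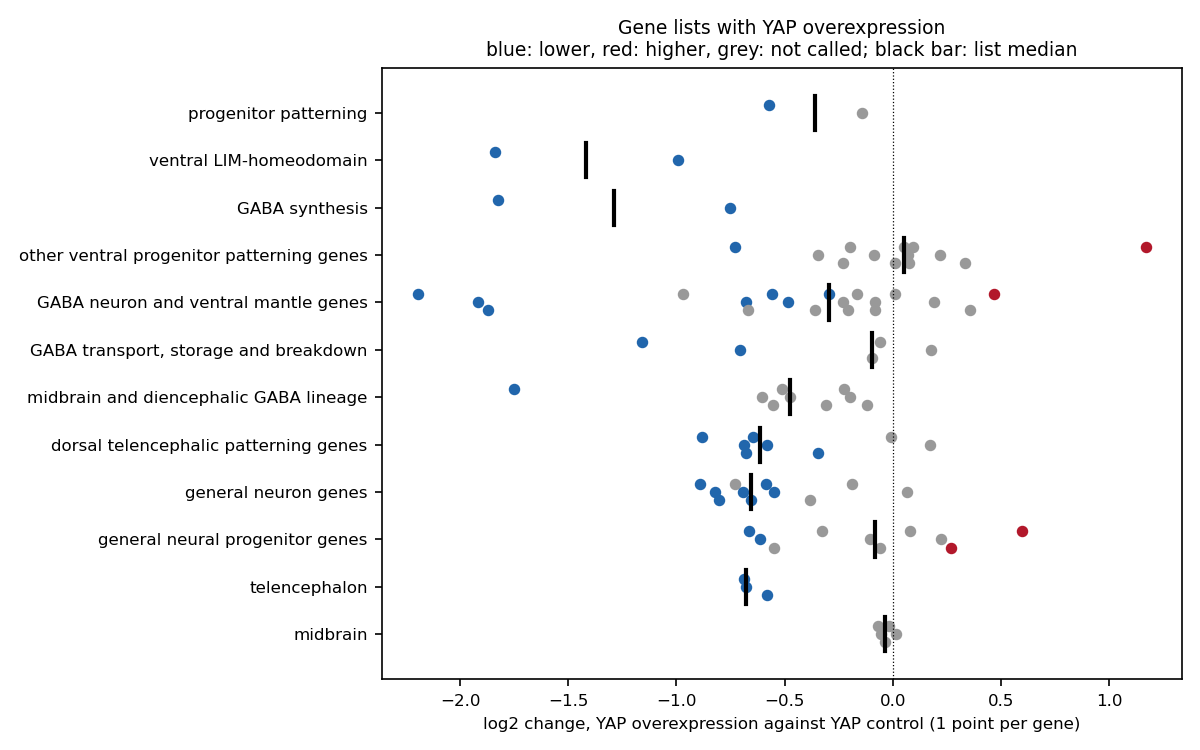
Log2 change with YAP overexpression (x axis) of every measured gene of 12 lists (rows), 1 point a gene, coloured by the call, with the list median as a black bar. The general neuron, dorsal telencephalic and telencephalon lists, the last a subset of the dorsal one, centre at -0.65, -0.61 and -0.68, the midbrain markers at -0.04, and Gad1, Lhx8, Dlx1, Dlx2, Dlx5 and Lhx1 lie furthest to the left.

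Since 7 of 11 general neuron genes and all 3 measured telencephalon markers fell, the members were also set against these lists on each array, a step added after the values were seen and given without a test. Relative to the mean of the 11 general neuron genes, Gad1 stood at -1.94, -1.77 and -1.76 in controls and at -3.30, -2.89 and -3.06 with overexpression. The groups did not overlap, which on this scale was so, on the lower side, for 0.532% of all genes. The difference was -1.26 for this Gad1 probe set and -0.73 for the other, whose groups did not overlap either. Lhx8 differed by -1.27 on this scale, but control replicate 1 at -3.75 lay among the overexpression arrays, at -3.66, -4.21 and -3.71. Lhx6 differed by -0.43, Gad2 by -0.19 and Gsx2 by -0.01, and Nkx2-1 by 0.42, all with overlapping groups. The median of all genes on this scale was 0.56.

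The members were set in the same way against Emx1, Emx2 and Lhx2, the 3 measured telencephalon markers, which are also 3 of the 8 dorsal telencephalic genes. Gad1 stood at -0.96, -0.65 and -0.72 in controls and at -2.20, -1.50 and -2.18 with overexpression, without overlap, as did 0.152% of all genes on the lower side. The difference was -1.18 for Gad1 and -1.19 for Lhx8, whose groups overlapped through control replicate 1. Lhx6 differed by -0.35, Gad2 by -0.11, Gsx2 by 0.07 and Nkx2-1 by 0.50, with overlapping groups, and the median of all genes was 0.64. Gad1 was the only member gene whose groups did not overlap on both scales, although the dimmer Lhx6 probe set was higher on this one, by 0.57, without overlap.

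**Figure D4:**
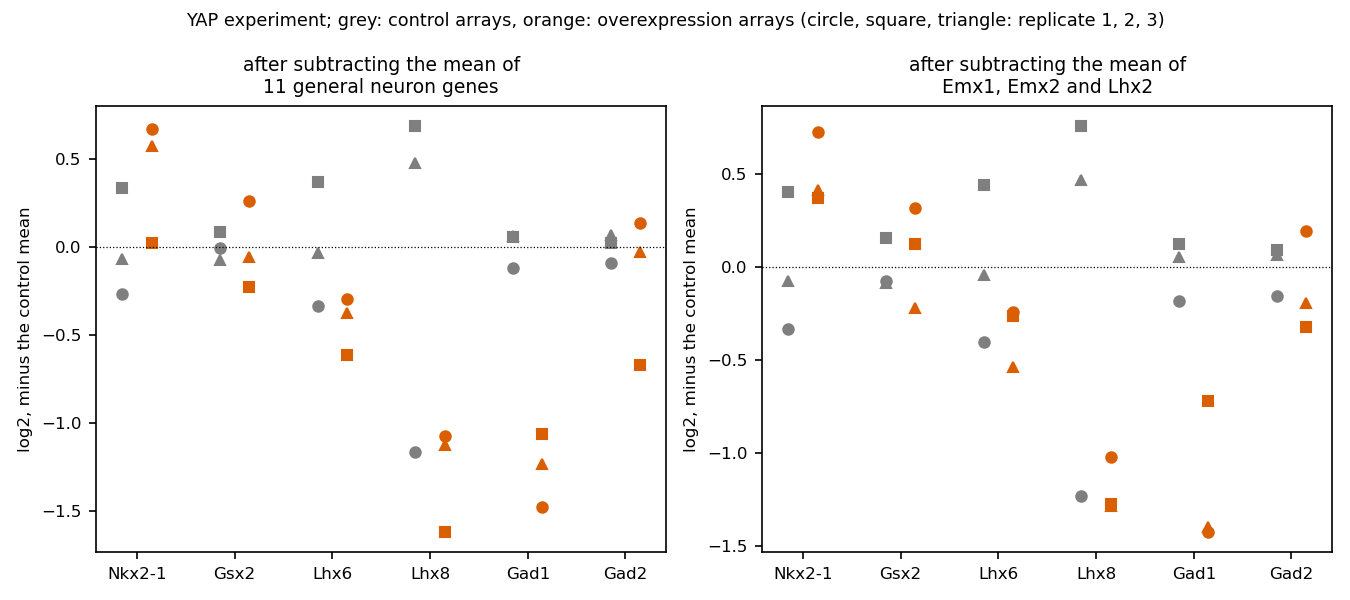
Log2 value minus the mean of 11 general neuron genes (left) or of Emx1, Emx2 and Lhx2 (right), shown relative to the control mean (y axis) for the 6 genes on the 3 control and 3 overexpression arrays. Gad1 is the gene whose overexpression arrays lie below every control array in both panels, and for Lhx8 control replicate 1 (grey circle) lies among the overexpression arrays.

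In the Nf2 experiment, none of the 6 genes was called in the dorsal telencephalon, as was true of nearly all genes there, with 0.252% called in either direction (43 genes, or 21 with the replicate number as a block). All 6 differences were negative, from -0.46 for Gad1 to -0.05 for Gsx2. Gad1 and Lhx6 had an unadjusted limma p under 0.05 (0.0279 and 0.0327), as did 6.24% of all genes, and the limma count of called members stayed at 0 under every other way of processing that was tried.

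The patterning genes were at the dim end of these arrays. Nkx2-1 read 3.32, 3.26 and 3.20 in controls and 2.99, 3.07 and 3.25 in knockouts, a difference of -0.16 (SE 0.13, limma adjusted p = 0.943). Its control mean was above 24.1% of all probe sets. Gsx2 read 3.59, 3.83 and 3.76 in controls and 3.69, 3.75 and 3.60 in knockouts, with an interval of the difference from -0.28 to 0.19. Lhx8 read 3.08, 3.06 and 2.83 against 2.86, 2.76 and 2.80, above 10.5% of all probe sets in controls. At this brightness a lower level may not be measurable.

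Gad1, Lhx6 and Gad2 mark GABA neurons, which can enter the cortex. Gad1 read 5.46, 5.91 and 5.72 in controls and 5.19, 5.38 and 5.13 in knockouts. Its groups did not overlap, which was true on the lower side of 6.09% of all genes. The difference was -0.46 (SE 0.19, limma adjusted p = 0.727), with a 95% interval from -0.87 to -0.06. The other Gad1 probe set read 4.15, 4.46 and 4.06 against 4.03, 4.30 and 4.07, and differed by -0.09 (SE 0.13), with overlap, so the probe sets gave different sizes. None of the 8 member probe sets was called in the probe set fit, against 0.17% of all. Lhx6 read 4.17, 4.67 and 4.67 against 3.80, 4.09 and 4.30, a difference of -0.44 (SE 0.18, limma adjusted p = 0.741). Knockout replicate 3 lay above control replicate 1, so the groups overlapped. Arrays of equal replicate number were not labelled as pairs. Between them the knockout was lower all 3 times for the brighter Lhx6 probe set (-0.37, -0.58 and -0.37). So it was for the brighter Gad1 probe set (-0.27, -0.53 and -0.59) and for Lhx8 (-0.22, -0.3 and -0.03), which was dim here. The dimmer Lhx6 (0.03, -0.24 and 0.07) and Gad1 (-0.12, -0.16 and 0.01) probe sets were not lower all 3 times. The share of all genes lower all 3 times was not counted. With the replicate number as a block none of these genes was called (limma adjusted p = 0.57 for Lhx6, 0.667 for Gad1 and 0.971 for Lhx8). Gad2 read 3.60, 4.14 and 3.65 against 3.45, 3.71 and 3.89, a difference of -0.11 (SE 0.17, limma adjusted p = 0.981).

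The companion lists held no called gene in this experiment. Dlx1, Dlx5 and Dlx2 differed by -0.65, -0.48 and -0.37 (limma adjusted p from 0.897 to 0.902), with Dlx1 control arrays spread by an SD of 1.03. Slc32a1 differed by -0.13 (limma adjusted p = 0.985). The medians were -0.05 for the GABA neuron list, -0.12 for general neuron genes and 0.02 for dorsal telencephalic genes, against 0.00 over all genes.

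Whether the YAP and Nf2 effects differed was tested in the same fit, with manipulation, age and tissue all differing between the experiments. None of the 6 genes passed, and 0.281% of all genes did. The difference of effects, YAP minus Nf2, was -1.36 (SE 0.26, limma adjusted p = 0.0649) for Gad1, -1.66 (SE 0.51, 0.261) for Lhx8, -0.64 (SE 0.24, 0.375) for Gad2, -0.55 (SE 0.26, 0.502) for Lhx6, -0.53 (SE 0.15, 0.23) for Gsx2 and 0.01 (SE 0.18, 0.994) for Nkx2-1. Of these, Gad1, Gsx2, Lhx8 and Gad2 had an unadjusted limma p under 0.05, against 10.1% of all genes. Gad1 passed under 5 of the alternatives tried, and Lhx8 under 1. In the fit of all probe sets, the dimmer Gad1 probe set passed (-1.21, SE 0.18, limma adjusted p = 0.0246), against 0.194% of all probe sets.

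The genes most like each member were sought among 859 genes with a range of at least 1 log2 unit within an experiment, by Pearson's r over the 12 arrays with each experiment's mean subtracted. These r values describe arrays that share the same groups and carry no test. For Gad1 they were Mfng (r = 0.987), Tagln3 (0.976) and Lhx9 (0.976), for Gsx2 Ptprz1 (0.969), Nol4 (0.966) and Dlx2 (0.961), and for Lhx6 Lmo1 (0.955), 4930488B01Rik (0.927) and Dlx1 (0.925). For Lhx8 they were Gm14204 (0.965), Hsd11b2 (0.923) and Pak3 (0.921), and for Gad2 4930488B01Rik (0.908), D030055H07Rik (0.907) and Lrrc4c (0.899). Nkx2-1 had the weakest likeness, with Crispld2 (0.809), Lhx8 (0.691) and Sorcs3 (0.665). Within the 6 Nf2 arrays alone, r with these genes ran from 0.753 to 0.958 for Gad1, 0.833 to 0.92 for Lhx6, 0.636 to 0.846 for Gad2, 0.606 to 0.656 for Gsx2, -0.043 to 0.574 for Lhx8 and 0.1 to 0.608 for Nkx2-1. Within the 6 YAP arrays alone, r ran from 0.767 to 0.994 and exceeded the r over 12 arrays for every gene named. The r values over 12 arrays thus lean on the YAP arrays for all members, and most for Lhx8 and Nkx2-1. Among the members, r ran from 0.774 to 0.884 for the 5 genes that fell and from 0.322 to 0.691 between these and Nkx2-1.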

How the data were processed

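The authors deposited 1 log2 intensity for each probe set and array. Tools named in the submitters' processing notes, with no role given, are Affymetrix Expression Console 1.1, Partek 6.5 and RMA, and the genome build is not given in the sources used here. Total RNA (100 ng) was labelled with biotin, per the labels' protocols. Of 45037 probe sets, 28898 had a single symbol in the platform table. Symbols were updated through Entrez IDs (28689 matched, 209 kept as given), and each gene was read from the brightest of its probe sets over 12 arrays.

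In R 4.3.3, limma 3.58.1 estimated 4 group means from all arrays together (two-sided, Benjamini-Hochberg over 17097 genes, or over 28898 probe sets where a member's other probe set is given), and tested on simulated data. With 3 arrays against 3, exact permutation cannot reach a p below 0.1 and was not used. SDs are over 3 arrays. SEs are from limma.

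The members and lists were chosen with earlier results of these data known. All members are named. Each list names up to 5 called genes and up to 3 others with the largest changes, and likeness names the 3 highest r. Listed genes with no probe set of their own in the platform table were not analysed here.

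Pairing by replicate number was read from residuals, since the sample titles give a replicate number and no pairing. In the Nf2 experiment the residuals of equal numbers correlated at 0.271, 0.212 and 0.207, and those of unequal numbers at -0.228 to 0. In the YAP experiment equal numbers gave 0.097, -0.195 and -0.204, while control 2 with overexpression 3 gave 0.304. Correlations of this size do not establish pairs. Other probe set choices, scalings, array weights and left-out arrays were tried as alternatives.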

Additional observations from a re-analysis of the deposited data

Results flagged for a closer look

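The dimmer of the Gad1 probe sets passed the test of a difference between the experiments. It fell by 1.30 on the log2 scale with YAP overexpression and differed by -0.09 with Nf2 knockout, and the difference of these effects, YAP minus Nf2, was -1.21 (SE 0.18, limma adjusted p = 0.0246 over 28898 probe sets, of which 0.194% were called). The brighter Gad1 probe set, with a difference of -1.36, did not pass (limma adjusted p = 0.0718 over the same probe sets). The mean of the dimmer probe set stood above 61.0% of all probe sets in YAP controls and above 46.2% with overexpression. In Nf2 controls it stood above 48.2%, so a fall of the same size may not have been measurable there. Manipulation, age and tissue cannot be told apart in this difference.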

How the results depend on the processing

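The 5 members lower with YAP overexpression stayed lower under every alternative that measured them, subtraction of list means aside, with log2 values from -0.67 to -0.45 for Gsx2, -1.18 to -0.53 for Lhx6, -2.45 to -1.52 for Lhx8, -2.06 to -1.56 for Gad1 and -0.88 to -0.63 for Gad2. The number called was 5, and 4 to 5 with 1 array left out, 3 with only the 6 arrays of the experiment, and 1 with genes above the median level only, where Gad1 was the only member tested. Gad2 was also not called with array weights (limma adjusted p = 0.0507). No member was called with Nf2 knockout under any of these alternatives.

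Genes called with YAP overexpression numbered 1078, with 361 in the 6-array fit, 689 with the replicate block and 529 to 1241 with 1 array left out (529 and 674 when control replicate 3 or 1 was left out, 688 and 678 when overexpression replicate 1 or 3 was). Genes called with Nf2 knockout numbered 43, with 25 in the 6-array fit, 21 with the replicate block, 67 with array weights and 20 to 50 with 1 array left out (25 and 23 when control replicate 2 or 3 was left out, 20 when knockout replicate 2 was). The block changed no member's call. With array medians subtracted, 472 of 1000 calls with YAP overexpression were lower, against 622 of 1078.

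Members whose effects differed between the experiments numbered 0, and 1 with genes above the median level only, with the mean of a gene's probe sets, with array weights and with eBayes with trend and robust, and 0 to 1 with 1 array left out. The 1 was Gad1, or Lhx8 without YAP control replicate 1. Signs turned, with no call, in leave-one-out values that ran from -0.14 to 0.12 for the difference of Nkx2-1, from -0.11 to 0.01 for Gsx2 with Nf2 and from -0.22 to 0.06 for Gad2 with Nf2. After subtraction of the neuron mean, signs turned for Nkx2-1 with YAP (0.42) and for Gsx2 (0.10) and Gad2 (0.04) with Nf2. After subtraction of the telencephalon mean they turned for Nkx2-1 (0.50) and Gsx2 (0.07) with YAP and for Gsx2 with Nf2 (0.02). The cause of these changes was not tested. Background correction and scan date were not varied. Dim probe sets limit what could be seen for Nkx2-1, Gad2 and the dimmer Lhx6 probe set. In the Nf2 experiment the same holds for Lhx8 and the dimmer Gad1 probe set.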
